A study of Mus musculus with 12 samples.

Results

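Aminoacyl-tRNA synthetases are encoded by 36 genes in the count tables examined here, and their RNA was compared between wild-type and *Ythdf2*-/- mouse neurospheres, gene by gene and between the cytosolic and the mitochondrial enzymes. The genes were taken by a list of symbols, matched to the rows of the deposited count tables either exactly or with a 1 added, and all 36 symbols were found among 24525 rows. Of these, 20 encode cytosolic enzymes and 16, whose symbols end in ars2, encode mitochondrial enzymes. The study deleted *Ythdf2*, which encodes a cytoplasmic reader protein that binds N6-methyladenosine (m6A) in mRNA and leads to its decay, to ask what its loss does to neural stem and progenitor cells. Cells of C57BL/6 embryos at E14.5 were grown as floating neurospheres and taken at passage 1, in medium with 20 ng/ml EGF, 10 ng/ml bFGF and the N2 and B27 supplements. The mutant allele came from mice whose 5′ UTR and first exon of *Ythdf2* were flanked by loxP sites and removed by a ubiquitously expressed Cre, and the embryos came from crosses of heterozygous mice. The deletion was therefore not limited to neural cells. The 6 libraries used are input RNA, that is fragmented mRNA without antibody enrichment, with 3 of each genotype, and the 6 m6A-IP samples were not analysed here. Nothing in the sources used here states which library came from which embryo, so the p-values below measure the spread between these libraries.

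An aminoacyl-tRNA synthetase joins an amino acid to its tRNA, which makes it the enzyme that reads the genetic code at the level of the tRNA. Mammals use largely separate sets of enzymes for the cytosol and for the mitochondrion, all encoded in the nucleus, while the genes for the glycine and lysine enzymes, *Gars* and *Kars*, supply both places. Several cytosolic enzymes sit together in the multisynthetase complex with the scaffold proteins encoded by *Aimp1*, *Aimp2* and *Eef1e1*. In the amino acid response, the transcription factor ATF4 raises the transcription of many cytosolic synthetase genes together with genes of amino acid synthesis and transport. ATF4 does so through the C/EBP-ATF response element.

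Stretches of 5 cytosolic promoters are shown because they hold the letters of this element, which no mitochondrial promoter examined did. The core letters of the C/EBP-ATF response element, TGATGNAA, were searched on both strands of RefSeq promoter windows of build GRCm38.p6, which run from 250 bases before to 50 bases after the annotated start of a gene. Of the 13 cytosolic genes with a window, 5 held the core (38.5%), and of the 14 mitochondrial genes with a window, 0 did, beside 1304 of all 32851 windows (3.97%). The table holds no window for *Nars*, *Rars*, *Hars*, *Wars*, *Lars*, *Vars*, *Cars*, *Hars2* and *Pars2*. A match in each of *Aars*, *Gars*, *Iars*, *Tars* and *Yars* is printed in a 30-base stretch on the strand of the gene, 5′ to 3′. The capitals mark the 8 letters of the match, which read as the reverse complement in every gene but *Yars*. A match describes the letters of the promoter and does not show that a factor binds there.
Yars, tyrosine enzyme, chr4:129189895-129189924, plus strand: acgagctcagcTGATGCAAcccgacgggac
Gars, glycine enzyme, chr6:55037960-55037989, plus strand: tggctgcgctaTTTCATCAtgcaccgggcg
Aars, alanine enzyme, chr8:111033840-111033869, plus strand: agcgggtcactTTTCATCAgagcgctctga
Iars, isoleucine enzyme, chr13:49682126-49682155, plus strand: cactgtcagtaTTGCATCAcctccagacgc
Tars, threonine enzyme, chr15:11399655-11399684, minus strand: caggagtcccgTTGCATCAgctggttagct

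The libraries held 11029827 to 13185778 counted reads, and 13112 genes passed edgeR's filter on low counts. *Ythdf2* had 71.9, 73.3 and 91.4 CPM, reads scaled to the effective total of their library, in wild-type libraries 1 to 3 and 11.7, 14.7 and 11.1 in *Ythdf2*-/- libraries 1 to 3, so the deleted gene followed the labels in all 6. Wild-type library 3 stood apart. Its counts differed from those of wild-type libraries 1 and 2 by a chi-square of 136 to 140 per degree of freedom over genes, against 4.57 between those libraries and 22.5 to 56.5 among the *Ythdf2*-/- libraries. The 14 proliferation genes listed, from *Mki67* to *Plk1*, were all lowest in that library, where they summed to 173 CPM against 2513 to 3760 CPM in the other 5. The 9 progenitor markers summed to 4156 CPM there against 5218 to 7114, but only *Nes*, *Fabp7* and *Vim* were lowest there, while *Sox2*, *Pax6*, *Hes5*, *Hes1* and *Sox9* were highest. The summed markers of 8 neuronal genes were 2418 CPM against 1284 to 1704, those of 7 astrocyte genes 8163 against 2614 to 5491, and those of 8 oligodendrocyte lineage genes 3424 against 1574 to 1903. Markers of microglia and macrophages stayed between 5.03 and 8.33 CPM and endothelial markers between 0.915 and 2.21 CPM in all 6 libraries, with *C1qa*, *C1qb*, *Ptprc* and *Cldn5* at 0 throughout. Mesenchymal markers summed to 32.4 CPM in wild-type library 3, of which *Pdgfrb* made up 31.8, and to 0.666 to 4.26 elsewhere. In bulk RNA, fewer cells of a type and less RNA per cell cannot be told apart. The main comparisons of genotypes are given with and without wild-type library 3.

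All 36 genes passed the filter. To compare levels between genes, CPM were divided by the length of the exons of each gene in kilobases, which gives RPKM. The 20 cytosolic genes had mean levels over the 6 libraries of 18.4 to 81.7 RPKM, with a median of 42.5. *Nars*, the asparagine enzyme, was highest at 81.7 RPKM, followed by the aspartate enzyme *Dars* at 74.5, *Kars* at 69.8 and *Gars* at 69.4, and *Cars*, the cysteine enzyme, was lowest at 18.4. The 16 mitochondrial genes spanned a much wider range, from 2.46 RPKM for the glutamate enzyme *Ears2* to 890.1 RPKM for the leucine enzyme *Lars2*, with a median of 8.75. The next mitochondrial gene was *Iars2*, the isoleucine enzyme, at 34.3 RPKM, then the arginine enzyme *Rars2* at 21.0, and the remaining 13 lay at or under 11.9. With *Lars2* left out, the summed RPKM of the cytosolic genes was 5.27 to 5.99 times that of the mitochondrial genes in the 6 libraries.

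**Figure D1:**
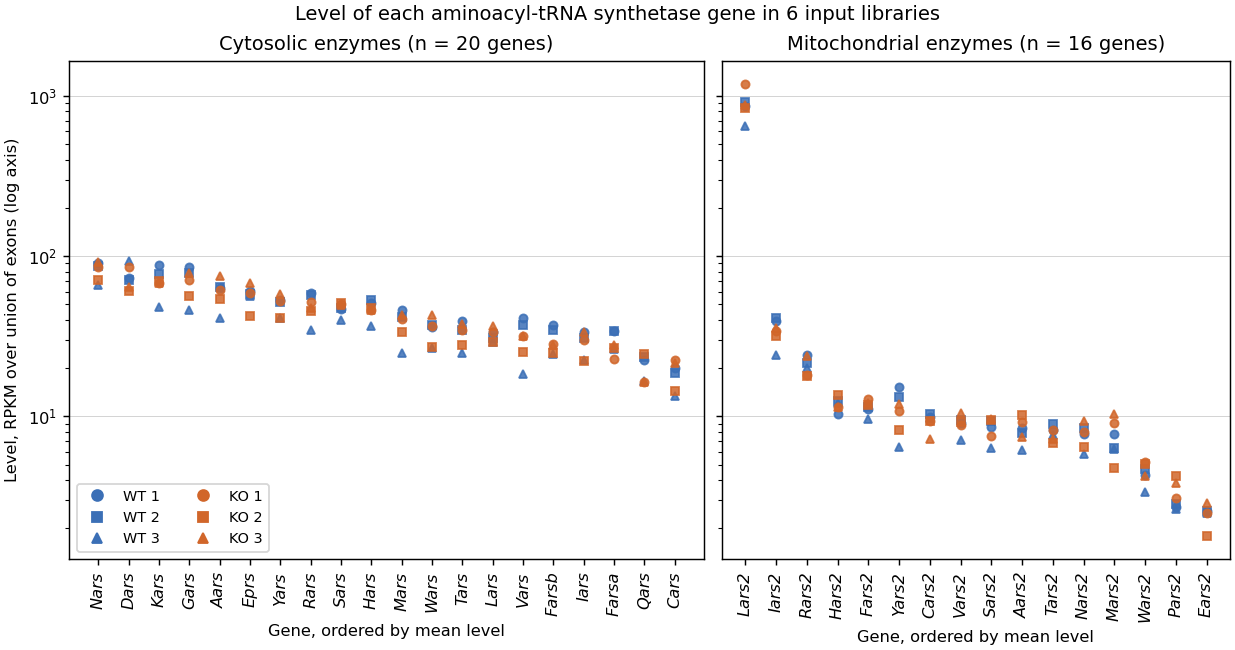
Level of each synthetase gene in each of the 6 libraries, in CPM per kilobase of exon (RPKM, log axis), with cytosolic and mitochondrial genes in separate panels, WT marking wild-type and KO marking *Ythdf2*-/- libraries. The cytosolic genes lie within a narrow band with means of 18.4 to 81.7 RPKM, and in the mitochondrial panel *Lars2* stands at 890.1, far above *Iars2* at 34.3.

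*Lars2* (chromosome 9, 123366927 to 123462675, plus strand) took most of the mitochondrial signal. Its level was 3392, 3575 and 2535 CPM in wild-type libraries 1 to 3 and 4649.5, 3269 and 3436 CPM in *Ythdf2*-/- libraries 1 to 3. Wild-type library 3 was lowest and *Ythdf2*-/- library 1 highest, the genotypes overlapped, and the log2 fold change of *Ythdf2*-/- over wild-type was 0.26 (SE 0.253), with an unadjusted p of 0.347 in edgeR's quasi-likelihood test, and 0.12 (SE 0.212) without wild-type library 3. The gene made up 86.8% to 90.7% of the summed mitochondrial CPM of a library. The authors' second set of tables gives another picture of this gene. There, RSEM assigned 22 to 56 expected counts to *Lars2*, against 27698 to 54526 raw counts. Scaled as CPM, the expected counts were 147, 112 and 83.2 in wild-type libraries 1 to 3 and 158, 154 and 215 in *Ythdf2*-/- libraries 1 to 3, higher in *Ythdf2*-/- without overlap, unlike the raw counts. Those tables held only 1.97% to 2.40% as many reads as the raw counts. By sequence, 398 of the 3905 exon bases of *Lars2* (10.2%) had a copy of at least 50 bases and 95% identity elsewhere in the genome. The longest copy, 244 bases at 97.5% identity, matches bases 123461792 to 123462035 of chromosome 9, close to the 3′ end of the gene. Gene counts do not show where in a gene the reads lie, and whether reads from such copies entered the count of *Lars2* was not tested.

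Copies elsewhere also touch the isoleucine gene *Iars*, for which 2103 of 4396 exon bases (47.8%) have one, with the longest on chromosome 1. Shorter stretches of *Ears2* (361 bases), the tryptophan gene *Wars2* (142), the threonine gene *Tars2* (109) and *Kars* (67) were repeated elsewhere, and the other 30 genes had no such copy. On the opposite strand, exons of the phenylalanine gene *Farsb* share 265 bases with *Sgpp2*, those of *Iars2* share 105 with *Rab3gap2*, and those of the methionine gene *Mars* share 68 with *Ddit3*, itself a gene of the amino acid response. The strand setting of the counting is not given in the sources used here, so reads of these overlaps cannot be assigned. By length of copied sequence, *Iars* and *Lars2* are the genes most open to reads from elsewhere. By number of copies it is *Ears2*, with 5877 against 16 for *Iars* and 11 for *Lars2*.

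For 17 pairs of a cytosolic and a mitochondrial gene that serve the same amino acid, the cytosolic gene was the higher of both in all 6 libraries for 15 pairs and the lower in all 6 for 2. The median ratio of RPKM over pairs was 4.15. Of the pairs with the cytosolic gene on top, the widest gap lay between *Eprs*, whose protein joins the glutamate and the proline enzyme in a single chain, and *Ears2*, and this ratio hardly moved between libraries, from 22.7 to 23.9. The pairs with the mitochondrial gene on top were *Iars* and *Iars2*, with ratios of 0.691 to 0.950, and *Lars* and *Lars2*, with ratios of 0.0282 to 0.0446. In each of these pairs, as in that of *Eprs* and *Ears2*, 1 gene has copies elsewhere, as given above. Between *Farsa*, the alpha subunit of the cytosolic phenylalanine enzyme, and *Fars2*, the ratio was 2.74 to 3.05 in the wild-type and 1.80 to 2.28 in the *Ythdf2*-/- libraries, and for the beta subunit *Farsb* it was 2.56 to 3.36 and 2.09 to 2.27. The genotypes did not overlap in either ratio, nor in that of *Eprs* to *Pars2*, which makes 3 of 17 pairs, where 10.2% of all single genes tested did not overlap. The ratios of *Farsa* and *Farsb* share *Fars2*, which by itself did not overlap between genotypes, while *Farsa* and *Farsb* each did, and they were singled out after the values were seen.

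No synthetase gene passed the test between the genotypes. In edgeR's quasi-likelihood test with Benjamini-Hochberg adjustment over all genes tested, 0 of 36 passed an adjusted p of 0.05, where 0 of 13112 genes did (0%), and every member had an adjusted p of at least 0.999. The deleted gene *Ythdf2* itself, with a log2 fold change of -2.66, had an adjusted p of 0.0547 in this test. A count of 0 at this threshold therefore does not show that a gene was unchanged. At an unadjusted p of 0.05, 0 of 36 passed, against 476 of 13112 genes (3.63%). DESeq2, which called 31 of all genes (0.237%), and limma-voom also called 0 of 36. Limma-voom with a quality weight for each library called 1, *Farsa*, where it called 632 of all genes (4.82%). The log2 fold changes of the cytosolic genes ran from -0.28 to 0.18 with a median of -0.01, 9 above and 11 below 0, those of the mitochondrial genes from -0.21 to 0.45 with a median of 0.12, 10 above and 6 below 0, and the median of all genes tested was -0.01. Standard errors were 0.123 to 0.308 for the cytosolic and 0.142 to 0.348 for the mitochondrial genes, so most differences were smaller than their error. The libraries of both genotypes did not overlap for 4 of the 36 genes, against 10.2% of all genes tested. These were *Sars*, *Fars2* and *Pars2*, higher in *Ythdf2*-/- as were 5.24% of all genes, and *Cars2*, lower as were 4.92%.

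Without wild-type library 3 the direction of the cytosolic genes shifted. Their median log2 fold change was then -0.15, with 3 above and 17 below 0, and that of the mitochondrial genes was 0.01, with 8 on each side, while the median of all genes was 0.01. At an unadjusted p of 0.05, 6 of the 36 genes were lower in *Ythdf2*-/-, where 8.58% of all genes were, and 0 were higher, where 8.03% of all genes were. At an adjusted p of 0.05, 0 of the 36 and 2 of 13283 genes passed (0.0151%), and the smallest adjusted p of a member was 0.182. The 6 were *Farsb*, *Farsa*, *Vars*, *Kars*, *Rars* and *Iars2*, of which those outside the rule for named genes were picked after their values were seen. In the same comparison 10 of the 14 proliferation genes were lower in *Ythdf2*-/- at an unadjusted p of 0.05 and 0 higher, with a median log2 fold change of -0.54 against 0.02 with all libraries, and their part in the synthetase values was not tested. The libraries left are 2 wild-type and 3 *Ythdf2*-/-. Reads on Y-linked genes were present in both of these wild-type libraries but, among the *Ythdf2*-/- libraries, only in library 3. Genotype and the presence of such reads are thus partly confounded in this comparison, and their part was not tested.

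**Figure D2:**
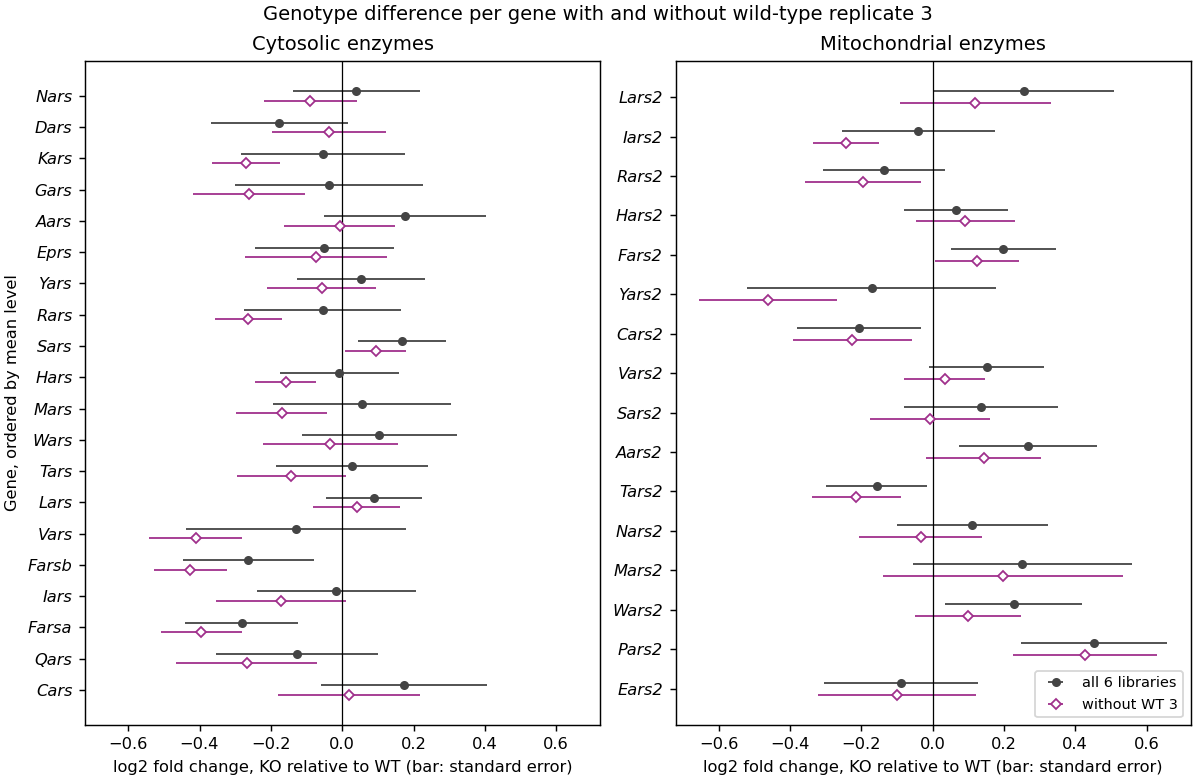
Log2 fold change of *Ythdf2*-/- over wild-type for each synthetase gene, with bars for the standard error, from all 6 libraries and from the 5 left without wild-type library 3. With all libraries the cytosolic values run from -0.28 to 0.18, and without wild-type library 3 the cytosolic median moves from -0.01 to -0.15.

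In the multisynthetase complex, 2 of the 8 genes had higher and 6 lower values in *Ythdf2*-/-. Their log2 fold changes had a median of -0.05, and 0 of the 8 passed an unadjusted p of 0.05, where 3.63% of all genes did. Without wild-type library 3 the median was -0.17, and 2 of the 8, *Kars* and *Rars*, were lower at an unadjusted p of 0.05, as were 8.58% of all genes. *Dars* gave 182, 178 and 235 CPM in wild-type libraries 1 to 3 and 213, 152 and 161 in *Ythdf2*-/- libraries 1 to 3. It is the member that was highest in wild-type library 3, and the genotypes overlapped. Its means were 198 ± 31.9 CPM in wild-type and 176 ± 33.0 CPM in *Ythdf2*-/- (SD, n = 3 each), and the log2 fold change was -0.18 (SE 0.192) with an unadjusted edgeR p of 0.391, and -0.04 (SE 0.161) without wild-type library 3. *Eprs* gave 298, 285 and 278 CPM in wild-type and 289, 209 and 334 in *Ythdf2*-/-, so that the wild-type libraries lay close together, with *Ythdf2*-/- library 1 among them, library 2 below and library 3 above. Its log2 fold change was -0.05 (SE 0.195), and -0.07 (SE 0.199) without wild-type library 3. For *Kars*, the values were 200.3, 176 and 109.8 CPM in wild-type and 156, 159 and 154 CPM in *Ythdf2*-/-. The *Ythdf2*-/- libraries lay close together, between wild-type library 3 below and wild-type libraries 1 and 2 above. The log2 fold change of *Kars* was -0.05 (SE 0.229) with all libraries. Without wild-type library 3 it was -0.27 (SE 0.0963), with an unadjusted edgeR p of 0.0299 and an adjusted p of 0.255. The arginine enzyme *Rars* had the same layout, with 125, 121 and 73.4 CPM in wild-type and 109, 96.7 and 102 CPM in *Ythdf2*-/-. Its log2 fold change went from -0.05 (SE 0.221) to -0.26 (SE 0.0941) without wild-type library 3, unadjusted edgeR p 0.0302. *Iars*, *Lars*, *Mars* and the glutamine enzyme *Qars* had log2 fold changes of -0.13 to 0.09, and of -0.27 to 0.04 without wild-type library 3, where *Mars* changed sign from 0.06 to -0.17.

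Outside the complex, 7 of the 12 cytosolic genes had higher and 5 lower values in *Ythdf2*-/-, and the log2 fold changes had a median of 0.03, and -0.12 without wild-type library 3. The genes of both subunits of the cytosolic phenylalanine enzyme had the lowest log2 fold changes of the cytosolic genes. *Farsa* (chromosome 8, 84856986 to 84869257, plus strand) gave 61.9, 62.1 and 47.9 CPM in wild-type and 42.0, 48.8 and 50.7 CPM in *Ythdf2*-/-. All 3 *Ythdf2*-/- libraries were below wild-type libraries 1 and 2, and wild-type library 3 lay among them. The means were 57.3 ± 8.16 CPM in wild-type and 47.1 ± 4.60 CPM in *Ythdf2*-/- (SD, n = 3 each), and the log2 fold change was -0.28 (SE 0.159) with an unadjusted edgeR p of 0.124, and without wild-type library 3 it was -0.39 (SE 0.113) with an adjusted p of 0.214. With library quality weights in limma-voom it was -0.48 with an adjusted p of 0.0417, the smallest over the 14 alternatives, where the largest was 0.99998. *Farsb* (chromosome 1, 78417958 to 78488897, minus strand) gave 94.8, 88.3 and 62.2 CPM in wild-type and 71.5, 62.7 and 70.2 CPM in *Ythdf2*-/-. Wild-type libraries 1 and 2 were the highest, and wild-type library 3 lay just under the lowest *Ythdf2*-/- library. Its log2 fold change was -0.26 (SE 0.184), unadjusted edgeR p 0.201, and without wild-type library 3 -0.43 (SE 0.102), adjusted p 0.182. Leaving out wild-type library 1 instead gave -0.14.

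The serine enzyme *Sars* gave 173, 176 and 149 CPM in wild-type and 186, 189 and 184 CPM in *Ythdf2*-/-. Every *Ythdf2*-/- library was above every wild-type library, and the gap between the highest wild-type and the lowest *Ythdf2*-/- library was smaller than the spread of the wild-type libraries. The log2 fold change was 0.17 (SE 0.123), unadjusted edgeR p 0.219, and 0.09 (SE 0.0855) without wild-type library 3. *Aars* gave 236, 239 and 153 CPM in wild-type and 229, 200.1 and 280.2 CPM in *Ythdf2*-/-, with wild-type library 3 lowest and *Ythdf2*-/- library 3 highest. Its log2 fold change of 0.18 (SE 0.227) went to -0.01 (SE 0.155) without wild-type library 3. *Nars* gave 234, 224 and 171 CPM in wild-type and 223, 185 and 239 CPM in *Ythdf2*-/-, overlapping, and its log2 fold change of 0.04 (SE 0.178) changed sign to -0.09 (SE 0.131) without that library. *Cars* gave 64.3, 59.8 and 43.2 CPM in wild-type and 72.5, 46.6 and 69.5 CPM in *Ythdf2*-/-, with a spread within each genotype larger than the difference of 0.17 (SE 0.233) on the log2 scale, which was 0.02 (SE 0.199) without wild-type library 3. The valine enzyme *Vars* gave 174, 158 and 77.8 CPM in wild-type and 133, 107 and 135 CPM in *Ythdf2*-/-, and its log2 fold change moved from -0.13 (SE 0.308) with all libraries to -0.41 (SE 0.131) without wild-type library 3, unadjusted edgeR p 0.0192. *Gars*, *Hars*, *Tars*, *Wars* and *Yars* lay between -0.04 and 0.10, and without wild-type library 3 all 5 were below 0, from -0.26 for *Gars* to -0.03 for *Wars*.

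Among the mitochondrial genes, the proline enzyme *Pars2* (chromosome 4, 106651069 to 106655282, plus strand) had the smallest p and the largest log2 fold change. It gave 8.39, 8.78 and 8.15 CPM in wild-type and 9.55, 13.2 and 11.9 CPM in *Ythdf2*-/-. The wild-type libraries fell within a narrow range and all 3 *Ythdf2*-/- libraries lay above it. The means were 8.44 ± 0.318 CPM in wild-type and 11.5 ± 1.84 CPM in *Ythdf2*-/- (SD, n = 3 each), which the fit gave as 1.37-fold or a log2 fold change of 0.45 (SE 0.205) with an unadjusted edgeR p of 0.0672 and an adjusted p of 0.999, and it kept its size without wild-type library 3 at 0.43 (SE 0.202). With library quality weights in limma-voom the log2 fold change of *Pars2* was smaller, at 0.27. Both parts of the *Eprs* protein have separate mitochondrial counterparts, and the pair of *Eprs* and *Pars2* had the most unequal log2 fold changes of the 17 pairs. Its ratio of RPKM was 20.5 to 22.4 in the wild-type and 9.99 to 19.1 in the *Ythdf2*-/- libraries, lowest in *Ythdf2*-/- library 2.

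The phenylalanine enzyme *Fars2* gave 21.1, 21.5 and 18.1 CPM in wild-type and 24.2, 22.4 and 23.1 CPM in *Ythdf2*-/-, without overlap. Its log2 fold change was 0.20 (SE 0.147), and 0.13 (SE 0.118) without wild-type library 3, opposite in sign to those of *Farsa* and *Farsb*, and its unadjusted edgeR p was 0.222. The cysteine enzyme *Cars2* gave 18.4, 19.0 and 17.9 CPM in wild-type and 17.3, 17.3 and 13.4 CPM in *Ythdf2*-/-, also without overlap, with a log2 fold change of -0.21 (SE 0.174), and *Ythdf2*-/- library 3 was the lowest. Without that library the log2 fold change of *Cars2* was -0.09. The alanine enzyme *Aars2* gave 28.2, 26.3 and 20.5 CPM in wild-type and 31.0, 34.3 and 25.0 CPM in *Ythdf2*-/-, overlapping, with a log2 fold change of 0.27 (SE 0.194), and 0.14 (SE 0.161) without wild-type library 3. *Wars2* gave 18.9, 20.6 and 14.7 CPM in wild-type and 22.9, 22.2 and 18.5 CPM in *Ythdf2*-/-, overlapping, with a log2 fold change of 0.23 (SE 0.192), and 0.10 (SE 0.149) without that library. *Tars2* gave 36.3, 40.0 and 33.8 CPM in wild-type and 36.5, 30.3 and 31.9 CPM in *Ythdf2*-/-, with a log2 fold change of -0.16 (SE 0.142), and wild-type libraries 1 and 3 fell below *Ythdf2*-/- library 1. With 1 library left out at a time, the log2 fold change of *Tars2* ran from -0.23 to -0.09. None of these genes passed an unadjusted p of 0.05.

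*Iars2* gave 139, 145 and 86.4 CPM in wild-type and 121, 114 and 126 CPM in *Ythdf2*-/-. Like *Kars* and *Rars*, its *Ythdf2*-/- libraries lay close together between wild-type library 3 and the other two, so that a log2 fold change of -0.04 (SE 0.214) became -0.24 (SE 0.0915) without wild-type library 3, with an unadjusted edgeR p of 0.0366 and an adjusted p of 0.272. *Ears2* gave 16.7, 16.6 and 16.3 CPM in wild-type, nearly the same in each, and 16.4, 11.6 and 18.7 CPM in *Ythdf2*-/-, with a log2 fold change of -0.09 (SE 0.216). The other 7 mitochondrial genes, *Hars2*, *Mars2*, *Nars2*, *Rars2*, *Sars2*, *Vars2* and *Yars2*, had log2 fold changes of -0.17 to 0.25. Without wild-type library 3 these ran from -0.46 (SE 0.193) for *Yars2* to 0.20 (SE 0.336) for *Mars2*, and *Sars2* and *Nars2* changed sign to -0.0079 and -0.03.

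On average over the synthetase genes of each compartment, wild-type library 3 stood further from the other libraries than the genotype means stood from each other. Wild-type library 3 was the lowest of the 6 for 15 of the 20 cytosolic and 10 of the 16 mitochondrial genes, against 34.4% of all genes tested, and it was the highest for 1 member, *Dars*, against 33.8% of all genes. On the log2 scale it lay at a median of -0.41 from the mean of the other 5 libraries for the cytosolic and -0.36 for the mitochondrial genes, while the median of all genes was 0.01. The lowest were the tyrosine enzyme *Yars2* at 54.0% of the mean of the other 5, *Vars* at 55.0%, *Mars* at 60.6% and *Gars* at 62.6%. At the other end, *Dars* stood at 133%, *Cars2* at 105%, *Ears2* at 102% and *Hars2* at 102%. The 8 genes of the complex averaged -0.30 and the 12 cytosolic genes outside it -0.45. This is the library in which all 14 proliferation genes were lowest and the summed neuronal, astrocyte and oligodendrocyte lineage markers were highest. Of these markers, however, *Olig1*, *Olig2* and *Cspg4* were lowest there. The markers *S100b*, *Slc1a2*, *Slc1a3*, *Aldh1l1*, *Stmn2*, *Snap25* and *Mog* lay within the range of the other libraries. The part of the proliferation genes and markers in the lower synthetase values was not tested.

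Within *Ythdf2*-/-, library 2 was the lowest of the 3 for 15 of the 20 cytosolic and 9 of the 16 mitochondrial genes, against 38.2% of all genes, and library 3 was the highest for 12 and 8, against 34.4% of all genes.

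**Figure D3:**
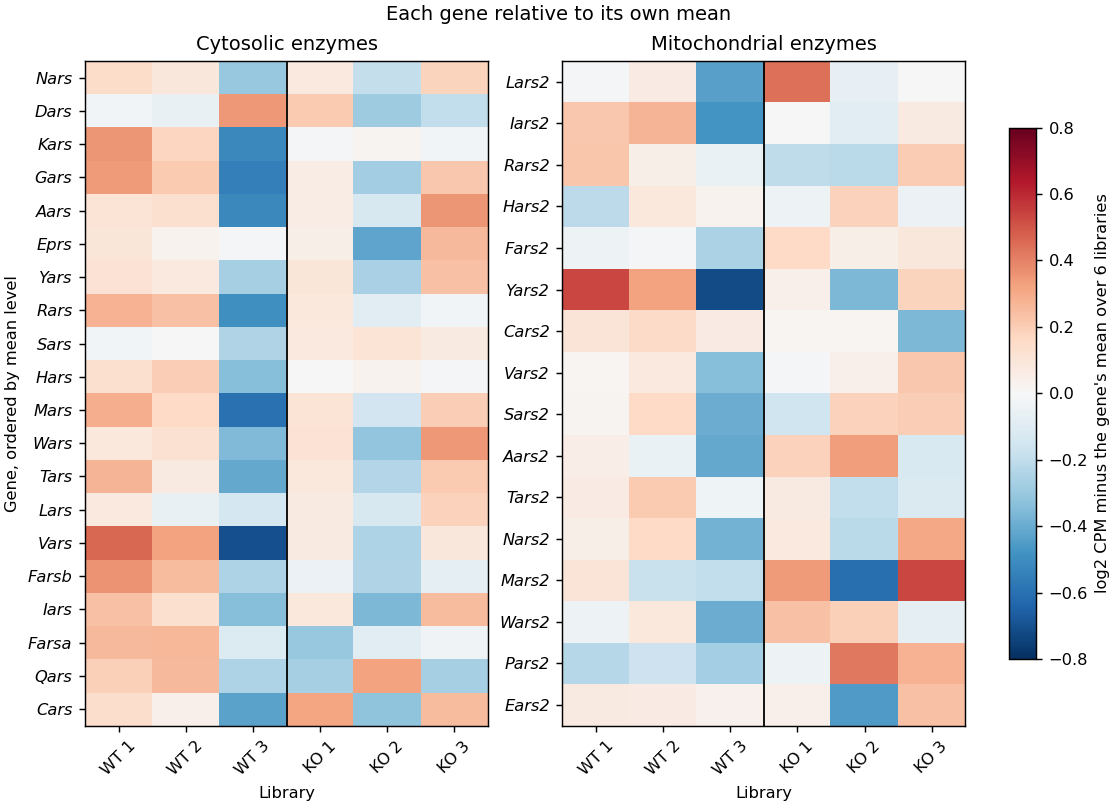
Log2 CPM of each synthetase gene in each library after subtraction of the mean of that gene over the 6 libraries, with genes in rows and the wild-type (WT) and *Ythdf2*-/- (KO) libraries in columns. Wild-type library 3 is lowest for 15 of 20 cytosolic and 10 of 16 mitochondrial genes, and *Dars* is the member that is highest there.

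To set the compartments against each other, log2 CPM were averaged over the genes of each in every library. The cytosolic average was 7.07, 7.01 and 6.55 in wild-type libraries 1 to 3 and 6.92, 6.71 and 6.99 in *Ythdf2*-/- libraries 1 to 3. The mitochondrial average was 5.17, 5.20 and 4.85 in wild-type and 5.19, 5.07 and 5.22 in *Ythdf2*-/-. Both averages were lowest in wild-type library 3 and next lowest in *Ythdf2*-/- library 2. The genotype means differed by -0.0028 for the cytosolic genes, with a pooled SD of 0.224 between libraries, and by 0.08 for the mitochondrial genes, with a pooled SD of 0.146. The cytosolic minus the mitochondrial average was 1.90, 1.81 and 1.70 in wild-type and 1.74, 1.64 and 1.77 in *Ythdf2*-/-, a difference of -0.09 between genotype means with a pooled SD of 0.0836. The genotypes overlapped in all 3 measures. Without wild-type library 3 the differences between genotype means were -0.16, -0.03 and -0.14, and both remaining wild-type libraries then exceeded every *Ythdf2*-/- library in the cytosolic average and in the difference between compartments. The closest libraries of both genotypes were near each other, at 7.01 against 6.99 and at 1.81 against 1.77. In both measures the library left out was the lowest wild-type library. By catalytic class, the 18 class I genes without *Eprs*, which joins an enzyme of each class, differed between genotypes by 0.03 and the 17 class II genes by 0.05 in mean log2 CPM, with pooled SDs of 0.228 and 0.155, and without wild-type library 3 by -0.13 and -0.07.

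**Figure D4:**
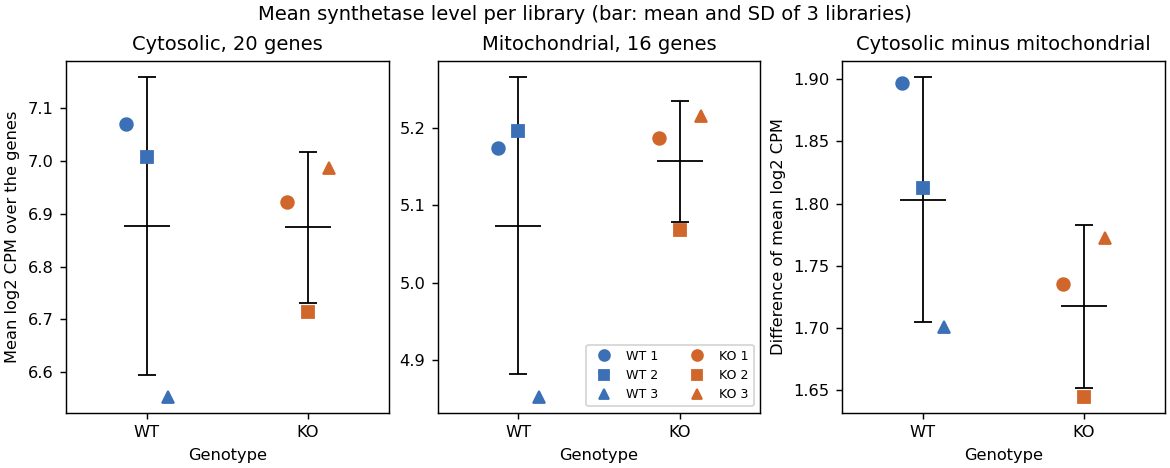
Mean log2 CPM of the 20 cytosolic genes, of the 16 mitochondrial genes and the difference of both in each library, with the mean and SD of each genotype (n = 3; WT wild-type, KO *Ythdf2*-/-). The genotypes overlap in every panel, with differences between genotype means of -0.0028, 0.08 and -0.09, and wild-type library 3 is lowest in the panels of the cytosolic and the mitochondrial genes.

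The cytosolic genes with the C/EBP-ATF core in the promoter stretches shown above overlapped with those without it in their log2 fold changes. The median log2 fold change was 0.03 for the 5 genes with it (-0.04 to 0.18) and -0.09 for the 8 genes with a window but no match (-0.28 to 0.17), and without wild-type library 3 the medians were -0.14 and -0.22. Wild-type library 3 lay at -0.66 to -0.32 from the mean of the other libraries for the 5 genes with the core, and at -0.71 to 0.42 for the 8 without. It was the lowest library for 4 of the 5 and for 4 of the 8. The genes without a match in these 300 bases include *Mars*, *Kars*, *Eprs* and *Sars*.

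The partners of the synthetases and the genes that act next in translation were compared in the same way. Of 14 partner genes, which include the scaffolds of the complex and the amidotransferase that completes mitochondrial glutamine tRNA, 0 passed an unadjusted edgeR p of 0.05, where 3.63% of all genes did. Their log2 fold changes were above 0 for 5 and below 0 for 9, with a median of -0.04, and -0.09 without wild-type library 3. The scaffold gene *Eef1e1* gave 48.1, 47.0 and 27.7 CPM in wild-type and 34.1, 21.2 and 38.2 CPM in *Ythdf2*-/-, and *Gatb*, of the amidotransferase, 28.1, 31.9 and 15.2 and 27.7, 27.5 and 39.5 CPM. Both overlapped between genotypes and had their lowest wild-type value in library 3. Without that library, 4 partner genes were lower in *Ythdf2*-/- at an unadjusted p of 0.05, *Eef1e1*, *Aimp2*, *Aarsd1* and *Trnt1*, where 8.58% of all genes were, 0 were higher, where 8.03% were, and 0 passed an adjusted p. Of 6 cytosolic elongation factor genes tested of 7 listed, and of 12 mitochondrial translation factor genes, 0 passed an unadjusted p of 0.05, again beside 3.63% of all genes. Their log2 fold changes had medians of 0.01 and 0.10, and of -0.09 and -0.07 without wild-type library 3. The mitochondrial elongation factor gene *Tufm* gave 141, 143 and 76.9 CPM in wild-type and 154, 123 and 169 CPM in *Ythdf2*-/-. Wild-type library 3 was lowest for *Tufm* and for 9 of the 12 mitochondrial translation factor genes.

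Of the 30 genes listed for the amino acid response, 24 had log2 fold changes above and 6 below 0, with a median of 0.22, where 6304 of all 13112 genes were above 0. At an unadjusted edgeR p of 0.05, 2 were higher and 1 lower in *Ythdf2*-/-, where 3.63% of all genes passed, and 0 passed an adjusted p. *Ddit4*, an inhibitor of mTORC1 signalling, gave 55.1, 50.5 and 60.2 CPM in wild-type and 76.7, 152 and 70.8 CPM in *Ythdf2*-/-. *Chac1*, which degrades glutathione, gave 2.65, 2.44 and 1.10 CPM in wild-type and 5.54, 2.74 and 8.45 CPM in *Ythdf2*-/-. Neither overlapped between genotypes, and *Atf3*, a stress-induced transcription factor, was lower in *Ythdf2*-/- with 2.39, 5.11 and 3.38 CPM against 6.59, 5.42 and 37.6 CPM, of which the wild-type library 3 value stood far above the rest. *Asns*, the asparagine synthetase gene whose promoter holds the same core as *Aars*, gave 72.8, 67.8 and 31.4 CPM in wild-type and 86.0, 61.5 and 101 CPM in *Ythdf2*-/-, overlapping, and was named after its values were seen. Wild-type library 3 was the lowest library for *Asns* and for 17 of the 30 genes, and without it the median log2 fold change of the list was 0.06, with 2 genes higher, *Ddit4* and the lipoprotein receptor gene *Vldlr*, and 0 lower at an unadjusted p of 0.05, where 8.03% and 8.58% of all genes were. *Vldlr* was named after its values were seen. *Chac1* and *Atf3* no longer passed, with log2 fold changes of 1.13 and -0.72 against 1.42 and -2.18 with all libraries.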

How the data were processed

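Input RNA-seq libraries of 3 wild-type and 3 *Ythdf2*-/- neurosphere samples were grouped by the genotype in their labels. The authors aligned reads to mm10 with TopHat and deposited unnormalized counts of whole reads for each gene. The authors also deposited expected counts, TPM and FPKM per gene in RSEM tables, of which the FPKM were not used. The submitters' processing notes name Bowtie2 2.2.9, RSEM 1.2.15 and featureCounts, without a strand setting. Counts were tested with edgeR 4.0.16 in R 4.3.3 (TMM, filterByExpr, glmQLFit with the robust option, glmQLFTest, genotype as the only term), adjusted by Benjamini-Hochberg over 13112 genes. The script for this fit was run on simulated data with known changes larger than those of the synthetase genes and with no library standing apart. That run therefore does not bear on changes of the size seen here. Standard errors are the absolute log2 fold change divided by the square root of the F statistic. Library averages used log2 CPM with a prior count of 2. Lengths are the merged exons of the listed RefSeq transcripts in GRCm38.p6, and copies were searched with BLAST 2.17.0 (at least 95% identity over 50 bases). Figures and sequence searches used Python 3.11.15 and pandas 2.3.3.

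Values in every library were given for the 6 cytosolic and the 6 mitochondrial genes with the smallest unadjusted p, the 2 with the highest and the 1 with the lowest mean RPKM in each compartment, and the pair of 1 amino acid whose log2 fold changes differed most. Of each other list, up to 3 genes with the smallest p and the 1 with the highest CPM could be named. *Kars*, *Rars*, *Vars*, *Aimp2*, *Trnt1*, *Asns* and *Vldlr* were added after their values were seen. Members, lists and tests were chosen with earlier results of these data known. Alternatives were other size factors, filters, DESeq2 1.42.0, limma 3.58.1 with voom, a replicate block, a term for Y-linked reads, other averages and the omission of each library. Libraries were compared before averaging, and none agreed within sampling noise.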

Additional observations from a re-analysis of the deposited data

How the results depend on the processing

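Over all genes tested, edgeR called 0 genes, and 1 with RLE size factors, 1 when genes with a single count were kept and 1 when each library had to hold 10 counts or more, while DESeq2 called 31 (25 of them lower in *Ythdf2*-/-), limma-voom with library quality weights 632 (333 and 299) and a term for reads on Y-linked genes, which were present in wild-type libraries 1 and 2 and *Ythdf2*-/- library 3, 13 (all lower). Leaving out 1 library at a time gave 0 to 2 calls. Of the synthetase genes, 0 were called in every alternative except quality weights (1, *Farsa*), and 0 to 0 with 1 library left out. At an unadjusted p of 0.05, 7 were lower with quality weights (3921 of all 13112 genes passed in either direction), 1 was higher with the Y-linked term (1436 of all 13112), and 0 to 6 passed with 1 library left out, the 6 without wild-type library 3 (2207 of 13283 genes) and 1 without *Ythdf2*-/- library 2 (548 of 13252). Same-numbered libraries correlated at -0.25, -0.24 and -0.39 in their deviations from the genotype means. With 3 libraries of each genotype and wild-type library 3 apart from the rest, these correlations cannot show whether replicate numbers pair the libraries. The replicate block gave 0 calls over all genes, and among the synthetases 0 calls and 0 genes at an unadjusted p of 0.05. Of 238 log2 fold changes of the 17 named genes under 14 alternatives, 13 changed sign. With quality weights *Dars* was 0.11, *Aars* -0.0077 and *Nars* -0.039, and with the Y-linked term *Iars2* was 0.13 and *Eprs* 0.019. With 1 library left out, *Aars* ran from -0.0068 to 0.29, *Nars* from -0.089 to 0.15, *Iars2* from -0.24 to 0.091, *Ears2* from -0.24 to 0.094 and *Eprs* from -0.20 to 0.13. The difference between genotype means ran from -0.16 to 0.10 for the cytosolic average, from -0.03 to 0.14 for the mitochondrial average and from -0.14 to -0.04 for their difference when 1 library was left out. As log2 of summed CPM, the mitochondrial value was 0.23 and the difference -0.23, and as log2 of the summed deposited TPM they were 0.41 and -0.36. Without *Lars2*, an alternative chosen after seeing the data, the TPM gave 0.29 and -0.25, and the summed CPM 0.04 and -0.04. The TPM rest on 33 to 77.0 expected counts for all cytosolic and 63.9 to 107 for all mitochondrial genes of a library, so depth limits them. The cause of these changes was not tested.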
